A study of Mus musculus with 2 samples.

Results

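The cadherins and protocadherins were followed in the brains of postpartum mice with and without TDAG51, a gene also called Phlda1. Members were all non-control rows whose gene name on the array begins with Cdh or Pcdh and a digit, or with Pcdha, Pcdhb or Pcdhg, apart from Cdh5, the cadherin of vascular endothelium. This gave 66 of the 27924 gene names on the array, measured by 111 of 41104 probes. They comprised 17 classical cadherins (5 of type I and 12 of type II), 5 atypical cadherins, 13 non-clustered protocadherins and 31 clustered protocadherins (3 alpha, 22 beta and 6 gamma).

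The samples were brains of C57BL/6J females aged 8 weeks and taken on postpartum day 0. They came from 3 genotypes, namely TDAG51+/+ (wild type, WT), TDAG51-/- (knockout, KO) and TDAG51-/-Tg2 (KO Tg). The KO Tg mice were knockouts that carried a TDAG51 transgene, line Tg2, driven by the brain-specific BAI1-AP4 promoter, which is active mainly in the cerebral cortex and hippocampus. The 2 comparisons ask how the KO brain differed from the WT brain, and how it differed from the brain of knockouts that carried the transgene. Both arrays held KO RNA in Cy3 and a control in Cy5, namely WT on one array and KO Tg on the other. Each comparison rested on 1 array without a dye swap, so the spread between animals is unknown, no gene could be tested, and a difference between dyes cannot be told apart from one between genotypes. The labels do not say how many dams a sample held or whether both arrays held the same KO RNA. Both ratios share the KO genotype and its dye, so like values on the 2 arrays are not independent results. The number of arrays limits the precision of every value.

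Cadherins are calcium-dependent adhesion proteins of the cell surface, which bind mostly to cadherins of the same kind on the neighbouring cell. Classical cadherins, of types I and II, are tied to the actin cytoskeleton by catenins and help neurons of like kind to sort, and synapses to form. The non-clustered delta protocadherins are expressed in distinct sets of neurons and act in axon growth and circuit formation. The clustered protocadherins are encoded by alpha, beta and gamma arrays of variable exons lying next to each other. Single neurons choose a few of these exons, which gives a neuron a surface identity used in self-avoidance.

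All ratios below are log2 ratios of KO over the control of the same array, after background correction and loess normalization, so that 1 is a 2-fold higher and -1 a 2-fold lower signal in KO. Intensities are mean spot signals before correction, and the median local background lay between 39.0 and 44. A gene was read from its brightest probe, and it entered a comparison where the scanner marked that probe well above background in at least 1 channel. Of the 66 members, 62 passed on the array with WT and 60 on the array with KO Tg. The probes of Cdh17, Cdh26, Pcdhb1 and Pcdhb8 were not well above background in either channel of either array, and that of Cdh18 was so in neither channel of the array with KO Tg. The brightest probe of Cdh11 was marked as an outlier on that array and has no value there. Repeat spots of 1 probe within an array had a standard deviation of 0.06 on the log2 scale on both arrays, which covers the spots and not the animals.

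Most members lay close to the control. Against WT, 5 of 62 members were at least 2-fold higher in KO (8.06%) and 3 were at least 2-fold lower (4.84%). Among all 23378 genes that passed on this array the shares were 4.88% higher and 4.64% lower, so the share of lower members was near that of all genes. The 5 higher members include Pcdhb16, whose probes were of opposite sign. The count was 4 with the median over all probes of a gene, where 4.13% of all genes were higher. Against KO Tg, 2 of 60 members were at least 2-fold higher and 2 were lower (3.33% each), where all 22900 genes gave 4.72% higher and 3.97% lower. The median ratio of the members was 0.14 against WT and 0.00 against KO Tg, beside 0.01 and 0.01 over all genes. A ratio within 0.5 of no difference was found for 46 members against WT (74.2%, where 66.8% of all genes gave one) and for 38 against KO Tg (63.3%, where 67.1% of all genes did).

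These counts moved with the scaling, and so did the shares over all genes. Without normalization, which placed the median of all genes at -0.23 against WT and at -0.27 against KO Tg, 4 members were higher and 6 lower than WT, and 1 was higher and 7 lower than KO Tg. Of all genes, 3.32% were then higher and 9.03% lower than WT, and 2.73% higher and 9.22% lower than KO Tg. Median centring gave 5 higher and 4 lower than WT, and 1 higher and 4 lower than KO Tg. The shares of all genes were 4.70% and 6.22% against WT, and 4.21% and 5.67% against KO Tg. With the ratio of the scanner software, which adds no offset to dim signals, 9 were higher and 5 lower than WT, and 7 were higher and 3 lower than KO Tg. By that ratio 10.7% of all genes were higher and 9.43% lower than WT, and 10.5% higher and 8.01% lower than KO Tg. Over the 6 kinds of ratio computed, the sign changed for 12 of the 62 members against WT and 9 of the 60 against KO Tg, and none of these was a member at least 2-fold apart from that control.

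**Figure D1:**
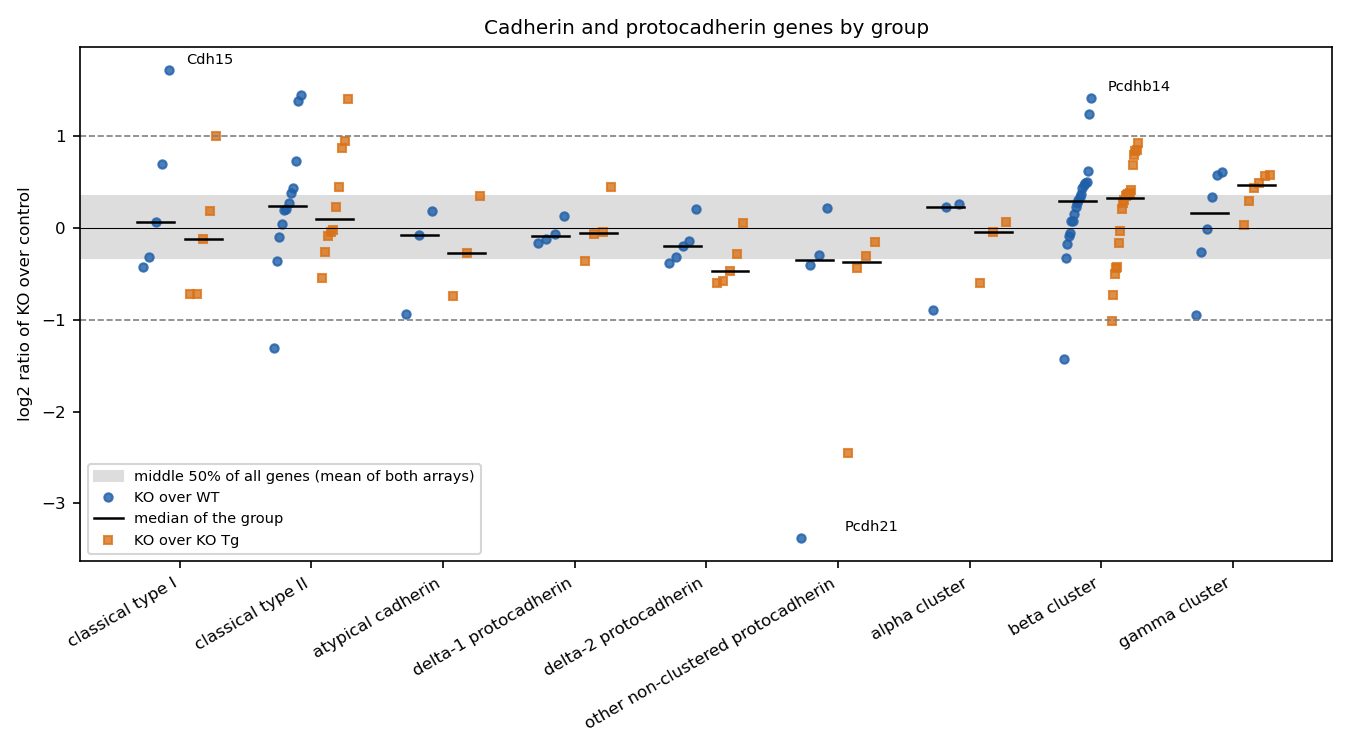
Log2 ratio of KO over WT (blue circles) and over KO Tg (orange squares) for each member that passed on the array, by group, with the median of each group as a black line. The grey band holds the middle 50% of all genes and dashed lines mark 2-fold, and Pcdh21 at -3.37 and -2.45 is the point furthest from 0 on both arrays.

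Markers of several brain regions, though not of all, also differed between the channels. All 11 cerebellar markers were higher in KO on both arrays. Of these, Cbln1, Pcp2 and Zic1 were saturated in KO on both arrays. The other 8 had a median of 2.06 against WT and 2.15 against KO Tg, and their summed intensity was 131457 in KO against 32091 in WT, and 140533 in KO against 33633 in KO Tg. Of 10 hindbrain and brainstem markers, 8 were higher than WT (median 2.51) and 9 were higher than KO Tg (median 2.48). Of 10 striatal markers, 9 were lower in KO on each array, with medians of -1.51 and -1.56. Of 9 cortical and hippocampal markers measured, 8 were lower on each array, with medians of -0.49 and -0.87, and the first was -0.47 without Mef2c, which was saturated in WT. Of 6 thalamic markers, Tcf7l2 was saturated in both controls. The other 5 lay near the controls, with medians of -0.04 against WT (2 higher, 3 lower) and -0.05 against KO Tg (1 higher, 4 lower). In whole brain RNA, fewer cells of a type in the tissue taken, whatever the reason, and less RNA in each cell cannot be told apart. The part that these differences play in the values of the cadherins was not tested.

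The targeted gene was read by 1 probe for Phlda1, with an intensity of 350 in KO and 7283 in WT, a ratio of -4.11. Both channels were well above background there. On the array with KO Tg the same probe gave 44.1 in KO and 50.5 in KO Tg, and neither channel was well above background. The KO readings of this probe thus differed between the arrays. Its place relative to the deleted part and to the transgene is not given in the sources used here, so it is no check of the transgene.

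Among the type I cadherins, Cdh15 stood apart from the others. Cdh15, or M-cadherin, is known from muscle precursors and from granule cells of the cerebellum. Its intensity was 1837 in KO and 626 in WT, and 1700 in KO and 992 in KO Tg. KO was the brighter channel on both arrays, and the KO Tg value lay between those of WT and KO. Here and below, WT and KO Tg intensities are from different arrays, before correction. The members past 2-fold all passed against WT, and picking them so favours a less extreme KO Tg value. Their order of WT, KO Tg and KO is therefore no test of the transgene. The ratio was 1.71 against WT (3.28-fold) and 1.00 against KO Tg (2.00-fold), the latter just at the threshold and between 0.77 and 1.04 over the kinds of ratio computed. The 11 cerebellar markers moved the same way on both arrays, as given above, and their part in the value of Cdh15 was not tested.

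The brightest probes of the neural type I cadherins had lower values in KO. Cdh2, or N-cadherin, the main classical cadherin of neurons and their synapses, had an intensity of 14671 in KO and 29588 in WT, and of 11368 in KO and 27950 in KO Tg. Its ratios were -0.43 and -0.73, both under 2-fold. A pair of dim probes of Cdh2 gave -0.22 and 0.31 against WT and -0.19 and 0.03 against KO Tg, so its probes differed in sign on both arrays. Cdh4, or R-cadherin, known from the retina and the developing brain, had ratios of -0.32 against WT and -0.72 against KO Tg. The brightest probes of both genes kept a negative ratio under each kind of ratio computed, and without normalization that of Cdh2 went past 2-fold, reaching -1.01 against WT and -1.30 against KO Tg. Cdh1, the E-cadherin of epithelia, had ratios of 0.69 and 0.18, and the second changed sign under another scaling, with values between -0.05 and 0.19. Cdh3, or P-cadherin, was dim, with intensities of 96.8 in KO and 93.6 in WT, and of 76.8 in KO and 85.8 in KO Tg, and ratios of 0.06 and -0.12, of which the first changed sign under another scaling.

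The type II cadherins, which mark subsets of neurons and, for some members, glia and mesenchyme, had a median ratio of 0.24 over the 12 that passed against WT and 0.10 over the 10 that passed against KO Tg. Without normalization both medians were just under 0, at -0.02 and -0.12. Against WT, 2 of them were at least 2-fold higher (16.7%) and 1 was lower (8.33%), where all genes gave 4.88% and 4.64%. Against KO Tg 1 was higher (10%) and none lower, where all genes gave 4.72% and 3.97%. With so few genes, 1 gene more or less changes these shares greatly.

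Cdh19, known from the Schwann cell lineage and other glia, was the one member with ratios over 2-fold and of nearly equal size on both arrays. Its intensity was 278 in KO and 93.8 in WT, and 257 in KO and 100.3 in KO Tg. The control values were low on both arrays but were marked well above background. The ratios were 1.38 (2.61-fold) and 1.41 (2.65-fold), and they ran from 1.31 to 2.36 and from 1.22 to 2.24 over the kinds of ratio computed, as the size of a dim value depends on the offset. Of 7 myelin and oligodendrocyte markers, Mag and Cnp1 were saturated in the controls. All 5 others were lower than WT (median -0.43), and 3 of them were higher than KO Tg (median 0.26). The part of these cells in the value of Cdh19 was not tested.

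Cdh7 was also higher in KO, with an intensity of 3797 in KO and 1645 in WT, and of 3968 in KO and 2643 in KO Tg. The KO values of both arrays were above both control values, and in uncorrected intensity KO Tg lay between WT and KO. The ratio was 1.44 (2.72-fold) against WT and 0.87 (1.83-fold) against KO Tg. A dimmer second probe gave 0.83 and 0.22. Cdh6, which marks neuron subsets and the early kidney, came near the threshold on the array with KO Tg, with ratios of 0.72 and 0.94.

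Cdh12, a type II cadherin of neurons, was the one classical member at least 2-fold lower than WT. Its intensity was 112 in KO and 305 in WT, and 97.0 in KO and 159 in KO Tg. KO Tg lay between WT and KO in uncorrected intensity, with the limits given for Cdh15. The ratios were -1.31 (2.47-fold lower) and -0.54 (1.46-fold lower). Bright type II members showed smaller ratios. Cdh20 had intensities from 11505 to 12098 in the 4 channels and a ratio of 0.44 on both arrays, which changed sign under another scaling, and a second, dim probe gave -0.27 and -0.43. Cdh11, a cadherin of mesenchymal cells and neurons, gave 0.05 against WT from its brightest probe, a value that changed sign under another scaling, and its other probes gave values from -0.30 to 0.44 there.

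**Figure D2:**
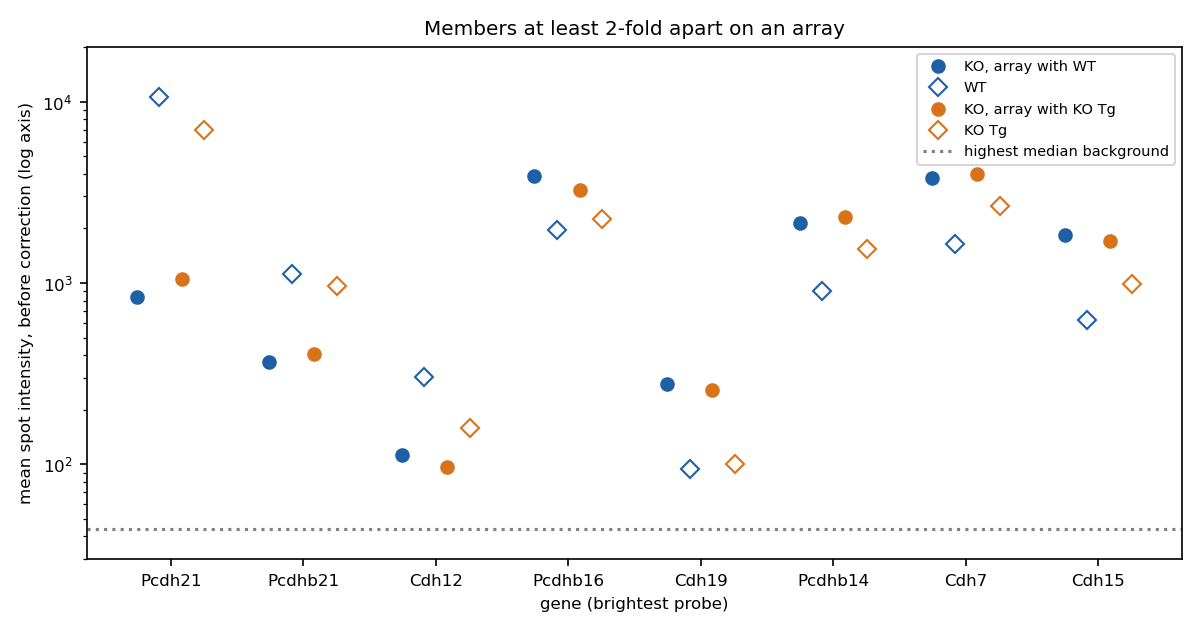
Mean spot intensity before correction (log axis) of the 8 members at least 2-fold apart on an array, with KO as filled circles and the control of the same array as open diamonds, blue for the array with WT and orange for the array with KO Tg. The 2 KO values of a gene lie close to each other, and Pcdh21 reads 10535 in WT and 7005 in KO Tg but 841 and 1045 in KO.

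The probes behind the differences of over 2-fold outside the protocadherin clusters are shown here, because each value above rests on what these oligonucleotides of 60 bases bind. The first 30 bases of the brightest probe are given as the array lists them, with coordinates on mouse build mm7. The place of these probes in an exon or untranslated region was not determined here, since no annotation of this build was used. The probe of Cdh19 spans 3056 bases of the genome, more than its own length, so it bridges at least 1 intron.
Cdh15 (chr8:121508826-121508885, plus strand): ggcccatccttggctccatggcagataaac
Cdh19 (chr1:110789243-110792298, minus strand): gggattcagaacagaggcaataattgccat
Cdh7 (chr1:110037180-110037239, plus strand): cacctggatctaactttcatggtaccctct
Cdh12 (chr15:21668765-21668824, plus strand): attctcctttagattagcaccagaggctgt
Pcdh21 (chr14:34505752-34505811, minus strand): tgtaataatcttgaggagggatatcctgca

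The upstream sequence of Cdh15 and of Pcdh21 is shown because these were the members furthest above and below WT. The 250 bases before the annotated start were taken from RefSeq on GRCm38.p6, where Pcdh21 is named Cdhr1, and capitals mark CANNTG, the E-box that basic helix-loop-helix factors bind. The motif reads the same on both strands. It occurred 3 times before Cdh15 and 1 time before Cdhr1. Of 32851 windows of the same length in the table, 66.2% held at least 1 and 12.2% held at least 3. A match describes letters in the window and no binding.
Cdh15 (chr8:122848124-122848373, plus strand): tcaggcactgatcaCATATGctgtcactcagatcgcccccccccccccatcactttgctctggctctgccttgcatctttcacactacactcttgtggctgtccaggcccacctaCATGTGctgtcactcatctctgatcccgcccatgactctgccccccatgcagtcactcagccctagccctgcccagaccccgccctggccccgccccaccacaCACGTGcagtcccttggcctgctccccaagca
Cdhr1 (chr14:37098348-37098597, minus strand): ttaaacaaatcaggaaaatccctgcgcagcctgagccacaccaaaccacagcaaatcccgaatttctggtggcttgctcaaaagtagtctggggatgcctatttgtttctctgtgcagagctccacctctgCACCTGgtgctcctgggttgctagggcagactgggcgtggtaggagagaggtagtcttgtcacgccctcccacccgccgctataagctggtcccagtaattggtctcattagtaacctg

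Pcdh21, now named Cdhr1 and listed as NM_130878, had the largest ratio of all members on both arrays. It encodes a photoreceptor cadherin of the retina that is also a marker of mitral and tufted cells, the output neurons of the olfactory bulb. The intensity was 841 in KO and 10535 in WT, and 1045 in KO and 7005 in KO Tg. Both KO values were far below both controls, and WT was the higher control. The ratio was -3.37 against WT (10.4-fold lower) and -2.45 against KO Tg (5.48-fold lower), and it stayed between -3.63 and -3.37 and between -2.73 and -2.45 over the kinds of ratio computed. Markers of the olfactory bulb moved with it in part. Of 6, 4 were lower in KO on each array, and the medians of all 6 were -1.45 and -1.06. The summed intensity of all 6 was 12023 in KO against 70352 in WT, and 12303 in KO against 55341 in KO Tg. Most of the control sums came from Sp8, with 41832.5 in WT and 36405 in KO Tg, and from S100a5, with 17562 and 9562. Tbx21, a factor of mitral and tufted cells, gave -0.48 and -0.50, and Doc2g, also enriched in the bulb, gave -2.41 and -1.61. S100a5, a marker of olfactory sensory neurons, gave -4.34 and -3.92, and Sp8, a transcription factor of bulb interneurons, gave -3.38 and -3.17. Th, the dopamine synthesis enzyme of periglomerular and other neurons, gave 1.01 and 2.24, and Eomes, another factor of mitral and tufted cells, gave 0.72 and 1.09. Each of the 6 markers was well above background in every channel. The part of the olfactory bulb in the value of Pcdh21 was not tested.

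Of the 5 atypical cadherins, 3 were measured, as Cdh17 and Cdh26 were not well above background. Cdh13, or T-cadherin, is held in the membrane by a lipid anchor and lacks the catenin-binding tail. Its intensity was 4667 in KO and 11895 in WT, and 3987 in KO and 8643 in KO Tg. KO was the dimmer channel on both arrays, yet the ratios of -0.94 and -0.74 did not reach 2-fold with loess normalization, and they reached -1.35 and -1.11 without it. Cdh16, a kidney cadherin, gave -0.08 and 0.34. Cdh23 and Pcdh15, which together form the tip links of hair cells, gave 0.18 and -0.27, and -0.30 and -0.30. A second probe of Cdh23 gave -0.18 against WT and -0.13 against KO Tg.

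The delta protocadherins lay near or below the controls. Of 9, 7 had a negative ratio on each array, with medians of -0.15 against WT and -0.28 against KO Tg, and none reached 2-fold by its brightest probe. Of all genes, 11599 of 23378 were negative against WT and 11203 of 22900 against KO Tg. Within delta-1, Pcdh7 was furthest up, with 0.13 and 0.45, and Pcdh9 was furthest down, with -0.17 and -0.36. Within delta-2, whose cytoplasmic tails bind the WAVE complex that drives actin assembly, the median was -0.20 against WT and -0.47 against KO Tg. Both medians stayed negative under the other kinds of ratio, and without normalization they were -0.65 and -0.99.

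The brightest delta-2 members were Pcdh17 and Pcdh10. Pcdh17, a protocadherin of basal ganglia circuits, had an intensity of 12767 in KO and 24484 in WT, and of 12842 in KO and 29234 in KO Tg. The 2 KO values differed by less than the 2 controls did, and the ratios were -0.38 and -0.60. Pcdh10, known from axon growth and synapse elimination, had an intensity of 9539 in KO and 15537 in WT, and of 10216 in KO and 22420 in KO Tg, with ratios of -0.20 and -0.58. Its other 3 probes gave lower ratios against WT, from -1.01 to -0.49, and 1 of them passed 2-fold. Pcdh8, an activity-regulated protocadherin also called arcadlin, gave -0.15 and -0.47. Pcdh18 was furthest up in the group, with 0.20 and 0.05, of which the latter changed sign under another scaling. The striatal and cortical markers given above were lower in the same channels, and their part in these values was not tested.

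Of the other non-clustered members, Pcdh20 gave -0.41 and -0.43, with intensities of 901 in KO and 1370 in WT, and of 929 in KO and 1492 in KO Tg. Pcdh12, a protocadherin of vascular endothelium, gave 0.22 against WT and -0.15 against KO Tg, and a second probe gave -0.02 and -0.06. The 6 endothelial markers measured had medians of 0.50 and -0.01.

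The clustered protocadherins as a group lay slightly above the controls, with a median of 0.26 over 29 genes against WT and 0.30 over 29 genes against KO Tg. Without normalization the first median turned to -0.04 and the other was 0.05. On each array 20 ratios were positive and 9 were negative, counting Pcdha6 and Pcdhga7, whose brightest probes were saturated in Cy5. Of all genes, 11779 of 23378 were positive against WT and 11697 of 22900 against KO Tg. Of the 29, 2 were at least 2-fold higher than WT (6.90%), Pcdhb14 and Pcdhb16, and 1 was lower (3.45%). None was at least 2-fold higher than KO Tg and 1 was lower (3.45%). The shares of all genes were 4.88% higher and 4.64% lower than WT, and 4.72% higher and 3.97% lower than KO Tg. The probes of Pcdhb16 were of opposite sign. Of the 29 genes, 20 were beta genes, each a single exon. Their medians were 0.29 and 0.32 and stayed above 0 without normalization, at 0.05 and 0.09. With the median over all probes of a gene they were 0.19 and 0.16. The medians of the 3 alpha genes (0.22 and -0.04) and the 6 gamma genes (0.16 and 0.46) were less settled, since both were negative against WT with median centring. Both also include a saturated probe. With saturated probes left out the alpha medians were -0.34 against WT and -0.32 against KO Tg.

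Pcdhb14 had an intensity of 2131 in KO and 908 in WT, and of 2300 in KO and 1532 in KO Tg. KO was brighter on both arrays, and in uncorrected intensity KO Tg lay between WT and KO. The ratio was 1.42 (2.67-fold) against WT and 0.83 (1.78-fold) against KO Tg. Pcdhb21 went the other way, with an intensity of 365 in KO and 1113 in WT, and of 404 in KO and 961 in KO Tg. Its ratios of -1.43 (2.70-fold lower) and -1.01 (2.02-fold lower) passed 2-fold on both arrays. The other beta genes near the threshold were Pcdhb11, with 0.50 and 0.93, and Pcdhb15, with 0.49 and 0.84. The brightest beta members, Pcdhb17 and Pcdhb20, gave 0.43 and 0.30, and 0.34 and -0.17. The ratios of Pcdhb17 on both arrays and that of Pcdhb20 against WT changed sign under another scaling.

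Pcdhb16 could not be given a direction. Its brightest probe had an intensity of 3884 in KO and 1954 in WT, and of 3254 in KO and 2263 in KO Tg, with ratios of 1.24 (2.36-fold) and 0.80. A second probe of the same gene and transcript, NM_053141, had an intensity of 204 in KO and 431 in WT, and of 221 in KO and 536 in KO Tg, with ratios of -0.96 and -1.06. Both probes were well above background in every channel and pointed in opposite directions on both arrays. Beta protocadherins are close copies of each other, and whether either probe binds other members was not tested.

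Disagreement between probes of 1 gene was not limited to Pcdhb16. Of 27 members with more than 1 probe, 23 had at least a pair of probes that passed against WT and 22 against KO Tg, and the median distance between the lowest and highest probe was 0.61 and 0.53. That distance exceeded 1 for 4 members against WT, namely Pcdhb16, Pcdhb17, Pcdh17 and Pcdh9, and for Pcdhb16 alone against KO Tg. The second probe of Pcdhb17 gave -0.72 and -0.29. The dimmest probe of Pcdh17 had an intensity of 148 in KO and 57.1 in WT, where WT was not well above background, and was at least 2.25-fold higher in KO, while on the other array it gave -0.04. The 5 probes of Pcdh9 ran from -0.28 to 0.79 against WT and from -0.36 to 0.52 against KO Tg. Probes of 1 gene can read different transcripts, and which transcripts these were was not tested.

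**Figure D3:**
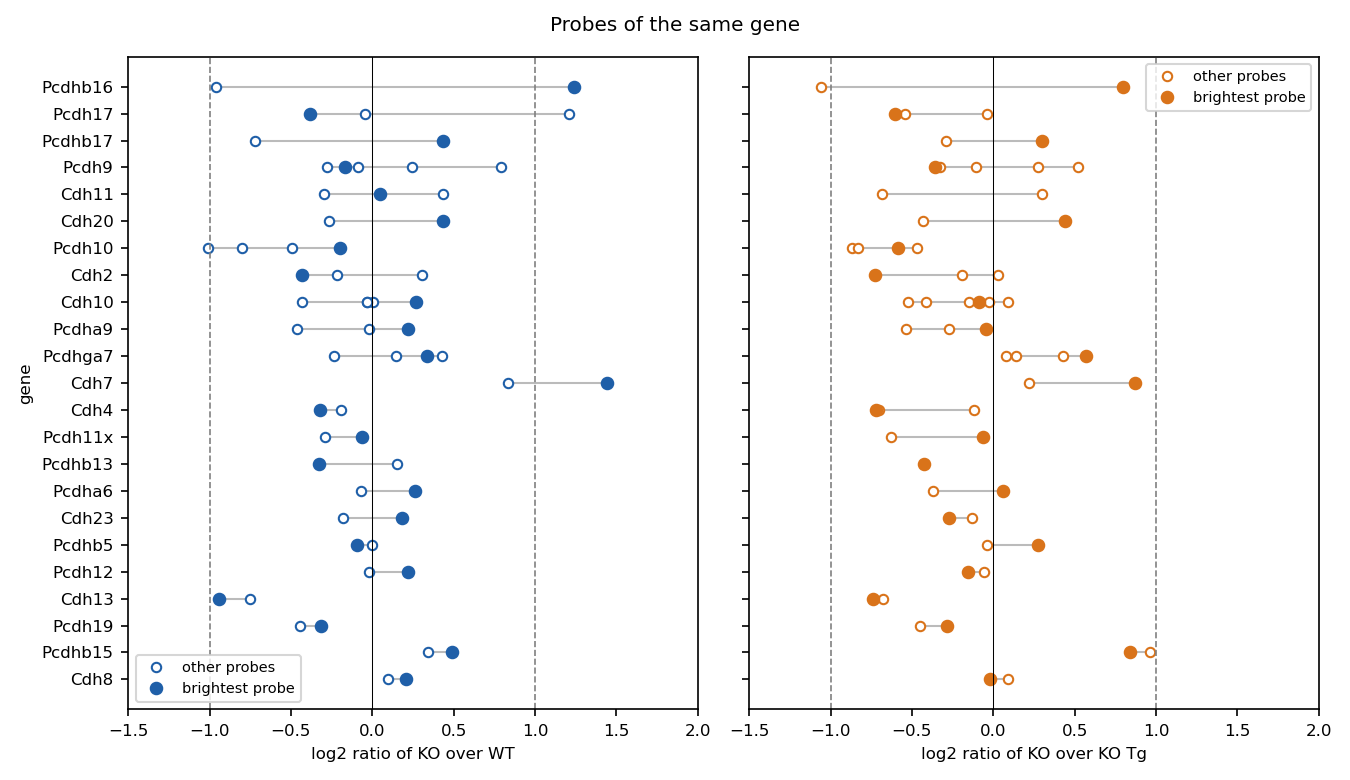
Log2 ratio of KO over WT (left) and over KO Tg (right) of each probe that passed, for members with at least a pair of passing probes on an array, with the brightest probe filled and the others open. Dashed lines mark 2-fold, and the probes of Pcdhb16 lie on opposite sides of 0 on both arrays.

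The alpha and gamma clusters differ from the beta cluster in that each variable exon is joined to constant exons shared by all members of the cluster. Probes for which the array lists 4 transcripts lay at the downstream end of these clusters and read several members at once. For the alpha cluster, the 3 probes that list fewer transcripts gave -0.89, -0.07 and -0.46 against WT and -0.60, -0.37 and -0.54 against KO Tg. The first of these is the probe of Pcdha4, with an intensity of 160 in KO and 326 in WT, and of 162 in KO and 288 in KO Tg. The 2 shared alpha probes that were not saturated gave 0.22 and -0.02 against WT, and -0.04 and -0.27 against KO Tg. The brightest probe of Pcdha6 was a shared probe and was saturated at 65284 in Cy5 on both arrays, so no fold is given. The first shared value, from Pcdha9, changed sign against WT under another scaling.

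For the gamma cluster, the brightest probe of Pcdhga7 was a shared probe and was likewise saturated in Cy5 on both arrays. The 1 shared gamma probe below saturation had an intensity of 9518 in KO and 9703 in WT, and of 8400 in KO and 10529 in KO Tg, and gave 0.43 and 0.14, both of which changed sign without normalization. Single gamma genes varied more than this. Pcdhga1 had the highest mean of both ratios, with 0.57 and 0.49, and Pcdhgb4 gave 0.60 against WT and 0.03 against KO Tg, where the sign changed under another scaling. Pcdhga9 had an intensity of 111 in KO and 231 in WT, and of 114 in KO and 103 in KO Tg, with ratios of -0.95 and 0.30. Its KO values were nearly equal on both arrays, whereas WT was over and KO Tg under them. Pcdhga4 gave -0.26 and 0.57, the latter above the value of Pcdhga1 on that array.

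**Figure D4:**
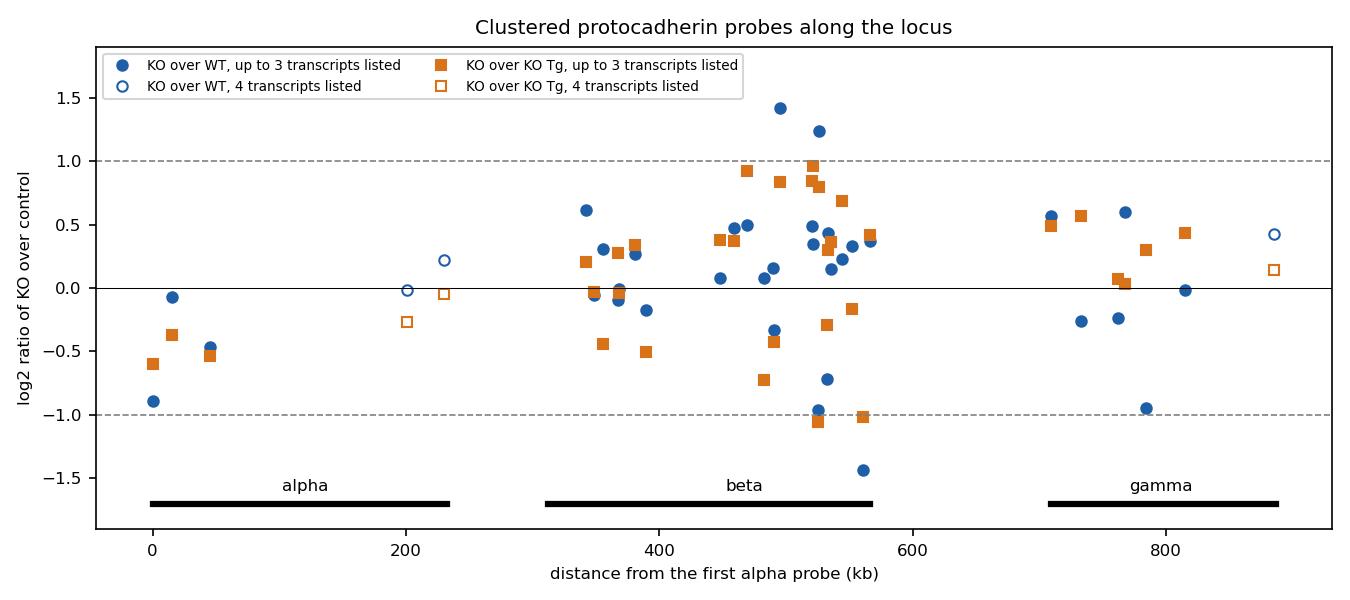
Log2 ratio of KO over WT (blue circles) and over KO Tg (orange squares) of each clustered protocadherin probe that passed and was not saturated, by its distance in kb from the first alpha probe, with open symbols for probes that list 4 transcripts. The alpha, beta and gamma probes span 0 to 232, 312 to 566 and 709 to 887 kb, and the largest ratios of either sign, from -1.43 to 1.42, are of beta probes.

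Genes that work with cadherins were read from the same arrays. Of 61 genes on 7 lists, 56 were on the array and 52 passed on each array, with medians of 0.03 against WT and -0.07 against KO Tg. Against WT, 1 was at least 2-fold higher and 1 lower, where all genes gave 4.88% and 4.64%. Against KO Tg none was higher and 2 were lower, where all genes gave 4.72% and 3.97%. All 7 catenins, which link classical cadherins to actin, stayed within 2-fold, with ratios from -0.65 to 0.83 and from -0.78 to 0.98. Fat4, a large cadherin of planar cell polarity, gave 1.30 and 0.81. It was dim, with intensities of 235 in KO and 87.1 in WT, and of 220 in KO and 139 in KO Tg. Ncstn, a subunit of the gamma-secretase that cleaves cadherins, gave -1.62 and -0.45. Its intensities were also low, at 88.6 in KO and 316 in WT, and at 74.1 in KO and 114 in KO Tg. Ptk2b, or Pyk2, a kinase inhibited by clustered protocadherins, gave -0.96 and -1.14. Whrn, a scaffold protein of hair cells also present in brain, gave 0.35 and -2.20, with intensities of 1936 in KO and 1770 in WT, and of 2009 in KO and 11747 in KO Tg.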

How the data were processed

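The authors deposited the output of Agilent Feature Extraction 9.5.3.1 for 2 two-colour arrays, which holds, for every spot and dye, the mean and the background intensity. The authors deposited with it the software's log10 ratio (Cy5 over Cy3) and p-value, the latter from an error model for the spot alone. The authors also deposited a log2 ratio, whose normalization is not given in the sources used here. It differed from the scanner ratio, turned to Cy3 over Cy5, by a median of 0.0059 for WT and 0.0058 for KO Tg, which gives its direction, and its columns had medians of -0.011 and -0.0087.

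Outlier and control spots were left out. Of 43379 non-control spots, 120 were of members. Intensities were corrected with normexp (offset 50) and normalized by loess in limma 3.58.1 (R 4.3.3 and data.table, version 1.17.8), and repeat spots were averaged per probe. Python 3.11.15 with pandas 2.3.3, numpy 2.4.6 and matplotlib 3.10.9 served for the rest. The method was tested on simulated arrays with a constant shift between dyes, in which only brighter probes were given known changes. Dim probes, a dye shift that varies with intensity and disagreement between probes were not covered. A fold with 1 channel near background is a lower bound, and folds were left out where both channels were or where the dimmer side was saturated. Current symbols came from the GRCm38.p6 gene list, in which 54 members matched by accession and 12 by symbol.

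Named are members at least 2-fold apart on an array, all type I cadherins, the brightest 2 and the furthest up and down of each group, members with probes over 1 apart, genes of the pathway lists at least 2-fold apart, and Phlda1. Cdh6, Cdh23, Pcdh15, Pcdh8, Pcdh12, Pcdhb11, Pcdhb15 and Pcdhga4 were added after their values were seen. The members and lists were chosen with earlier results of these data known. The alternatives were offset 0, the scanner ratio with and without its p-value, the deposited log2 ratio, median centring, no normalization, other filters, all probes of a gene, lower bounds, and no saturated probes.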

Additional observations from a re-analysis of the deposited data

Results flagged for a closer look

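The gamma protocadherin Pcdhga9 had ratios of opposite sign on the 2 arrays that lay over 2-fold apart, at -0.95 against WT and 0.30 against KO Tg, a difference of -1.24. The difference was not tested, since each comparison was made on 1 array. All 4 intensities, from 103 to 231, were low. Pcdhga9 was the 1 of 60 members that passed on both arrays to show this, and 840 of all 22507 genes that passed on both did.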

How the results depend on the processing

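The counts of members at least 2-fold apart (5 higher and 3 lower than WT, 2 higher and 2 lower than KO Tg) moved with the source of the ratio and its scaling. Offset 0 gave 5 lower than WT and 5 higher than KO Tg, where all genes gave 7.76% and 8.29%. The scanner ratio gave 9 higher and 5 lower than WT and 7 higher than KO Tg, with or without its p-value, and the deposited log2 ratio gave 9, 6 and 7. In the same order, all genes gave 10.7%, 9.43% and 10.5% with the scanner ratio, and 10.4%, 9.70% and 9.86% with the deposited ratio. Of the genes left by the p-value limit, the shares were 20.7%, 18.6% and 20.6%. Median centring gave 1 higher and 4 lower than KO Tg. No normalization gave 6 lower than WT, and 1 higher and 7 lower than KO Tg. The shares over all genes with median centring and without normalization are given with the counts above. The median ratio of the members against WT was 0.14, and it was 0.0696 with median centring, -0.0812 without normalization, 0.0553 over all probes of a gene and 0.0769 with lower bounds. Against KO Tg it was 0.00, and -0.224 without normalization. The other 43 values of these results stayed within 1.5 times the count or within the spread of repeat spots. No median was computed for the scanner ratio limited by its p-value, since that limit selects on the ratio. Of 396 values for single groups and genes under the alternatives, 253 moved by less than the spread of repeat spots and 143 by more, and the one sign change among the 8 members at least 2-fold apart on an array was that of Pcdhb16 against KO Tg, from 0.80 to -0.13 over both of its probes. Against WT its value over both probes was 0.14. No paired analysis was possible because each comparison was made on 1 array. Signal over background limited the 4 members that no channel measured, and the offset of 50 makes the ratios of dim members smaller.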

Other observations

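The WT and KO Tg samples were on different arrays, both in Cy5, and were set side by side after scaling the arrays to each other. Of the 56 members well above background in both, Pcdhga9 was the 1 at least 2-fold apart (1.79%), with a log2 difference of KO Tg minus WT of -1.12. Of all 20613 genes well above background in both, 6.46% were at least 2-fold apart. The other members at least 0.60 lower in KO Tg were Cdh12 (-0.97), Pcdhga4 (-0.92), Pcdhb19 (-0.85) and Pcdh21 (-0.60). Those at least 0.60 higher in KO Tg were Pcdhb20 (0.92), Pcdhb4 (0.89), Pcdhb14 (0.70), Cdh23 (0.65), Pcdh12 (0.65), Cdh7 (0.64) and Cdh15 (0.60). The median size of this difference was 0.28 over the members and 0.26 over all genes. The 2 KO channels, in Cy3, differed by a median size of 0.11 over 59 members and 0.10 over all genes. No member differed by 2-fold, where 0.29% of 22285 genes did, and the largest difference of a member was that of Pcdhb20 at 0.41. Some genes outside the members differed far more between the KO channels. Hba-a1 had a KO intensity of 2259 on the array with WT and 35470 on the array with KO Tg, and Hbb-b1 of 9175 and 56948. Phlda1 had KO intensities of 350 and 44.1, the second not well above background. Differences between arrays and between samples cannot be told apart here.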
